A study of Rattus norvegicus with 8 samples.

Results

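Endothelin signalling was described in the thoracic aorta through 6 genes chosen by name: the peptide genes Edn1 and Edn3, the converting enzyme genes Ece1 and Ece2, and the receptor genes Ednra and Ednrb. All 6 were found among the 19238 genes of the gene table, and 1 of the 24300 transcripts of the long non-coding RNA (lncRNA) table overlapped the Ednrb locus. Total RNA had been sequenced from 4 control Wistar rats and 4 Goto-Kakizaki (GK) rats aged 7 to 8 weeks, and the libraries of each group carry the numbers 7 to 10. GK is an inbred strain derived from Wistar rats with inherited non-obese diabetes, and the study's title calls its condition diabetic macroangiopathy. Strain and diabetes divide the samples in the same way and cannot be told apart, no label gives the sex or a measure of blood glucose, and all samples carry a source name that reads GK, which was not used. Separate animals are not stated beyond the titles, and p-values therefore speak of the spread between libraries, which may be technical.

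Endothelins are short peptides cut from long precursors, first by furin-type proprotein convertases and then by the endothelin-converting enzymes. Endothelin 1 comes mainly from endothelial cells. The A receptor on smooth muscle cells drives contraction through Gq proteins, whereas the B receptor on endothelial cells releases nitric oxide and prostacyclin and clears the peptide, and can contract the vessel where smooth muscle carries it. Endothelin 3 acts mainly through the B receptor and is known for its part in the development of neural crest derivatives such as enteric neurons and melanocytes.

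Of the 6 genes, Ednrb was the one that rose in GK aorta under the main test, 5.10-fold, together with the lncRNA transcript inside its locus. Of the members, 5 passed the filter on low counts and none was called lower. Ednra and Ece2 each depended on a single library, Edn3 was nearly absent outside the library GK 9, and Ece1 and Edn1 did not pass the test. Over all 13673 genes tested, 3.96% were called higher and 3.31% lower in GK, 7.28% in all. The members' median log2 fold change was 0.17, beside 0.00081 over all genes tested. Levels are given as CPM (counts per library total, scaled by TMM factors), a log2 fold change is GK over control ± SE with n = 4 per group, and an adjusted p is that of edgeR's quasi-likelihood test, Benjamini-Hochberg adjusted over all genes and called under 0.05.

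The stretch upstream of the gene start is shown for the ligand gene Edn1 and for both receptor genes, since Edn1 is known for GATA and AP-1 elements close to its start and the receptors are compared with each other below. Each run holds the 250 bases before the start from RefSeq, build GRCr8, 5′ to 3′ on the gene's strand, at chr17:22666688-22666937 (minus strand) for Edn1, chr19:47137674-47137923 (plus strand) for Ednra and chr15:87086766-87087015 (minus strand) for Ednrb. Capitals mark the motifs searched.
Edn1: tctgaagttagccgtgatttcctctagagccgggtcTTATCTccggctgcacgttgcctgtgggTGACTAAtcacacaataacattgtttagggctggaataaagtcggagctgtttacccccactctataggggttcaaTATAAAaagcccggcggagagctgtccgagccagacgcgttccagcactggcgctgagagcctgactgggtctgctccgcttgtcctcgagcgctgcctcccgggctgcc
Ednra: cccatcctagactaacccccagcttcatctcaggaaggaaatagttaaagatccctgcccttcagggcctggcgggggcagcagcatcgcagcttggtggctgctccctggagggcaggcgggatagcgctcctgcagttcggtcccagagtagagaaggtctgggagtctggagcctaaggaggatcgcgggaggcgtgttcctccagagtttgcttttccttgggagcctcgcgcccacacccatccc
Ednrb: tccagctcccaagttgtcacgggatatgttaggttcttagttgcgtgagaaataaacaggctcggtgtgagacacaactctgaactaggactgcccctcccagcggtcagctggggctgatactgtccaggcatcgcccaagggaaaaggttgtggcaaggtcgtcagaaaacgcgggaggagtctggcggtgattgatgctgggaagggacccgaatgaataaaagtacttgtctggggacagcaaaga

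The Edn1 window held 1 match to AGATAA, the motif of GATA factors, at position -214 counted back from the start and on the opposite strand, so that it reads TTATCT. It held 1 match to TGACTAA, an AP-1 type motif, at position -186 and 1 match to TATAAA, searched as read only, at position -110. Among all 33469 rat windows of this length, 10.3% held AGATAA, 1.99% held TGACTAA and 8.06% held TATAAA. Neither receptor window held any of these, nor did the windows of Ece1 and Ece2. ACAAAG (SOX type), CATGTG (M-box) and CACGTG (E-box), searched on both strands, were in none of the 5 windows, and 16.3%, 12.1% and 5.59% of all windows held them. The 4 members other than Edn3 and Edn1 had a GC content of 53.2% for Ednrb, 61.2% for Ednra, 69.2% for Ece1 and 76.4% for Ece2, against 56.4% for Edn1 and a median of 51.2% over all windows. Edn3 had no entry in the table.

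The libraries held 11760397 to 16266151 gene counts and 1185872 to 2031376 lncRNA counts. Smooth muscle and endothelial markers were present in all 8 libraries, as the tissue label has it, and so were adipocyte genes: Fabp4 stood at 1923 to 6080 CPM and the brown adipocyte gene Ucp1 at 336 to 3700 CPM. Both libraries numbered 9 stood apart by nerve genes. Th, which encodes the enzyme that starts catecholamine synthesis, was at 91.0 CPM in GK 9 and 2.55 CPM in control 9 and at most 0.206 CPM in the other 6, and Dbh, the enzyme that makes noradrenaline, was at 411 CPM in GK 9, 5.23 CPM in control 9 and at most 0.0924 CPM elsewhere. The members and the counts of the gene lists are therefore given with and without these libraries where that changed them. In RNA of a whole vessel, fewer cells of a type and less RNA per cell cannot be told apart.

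**Figure D1:**
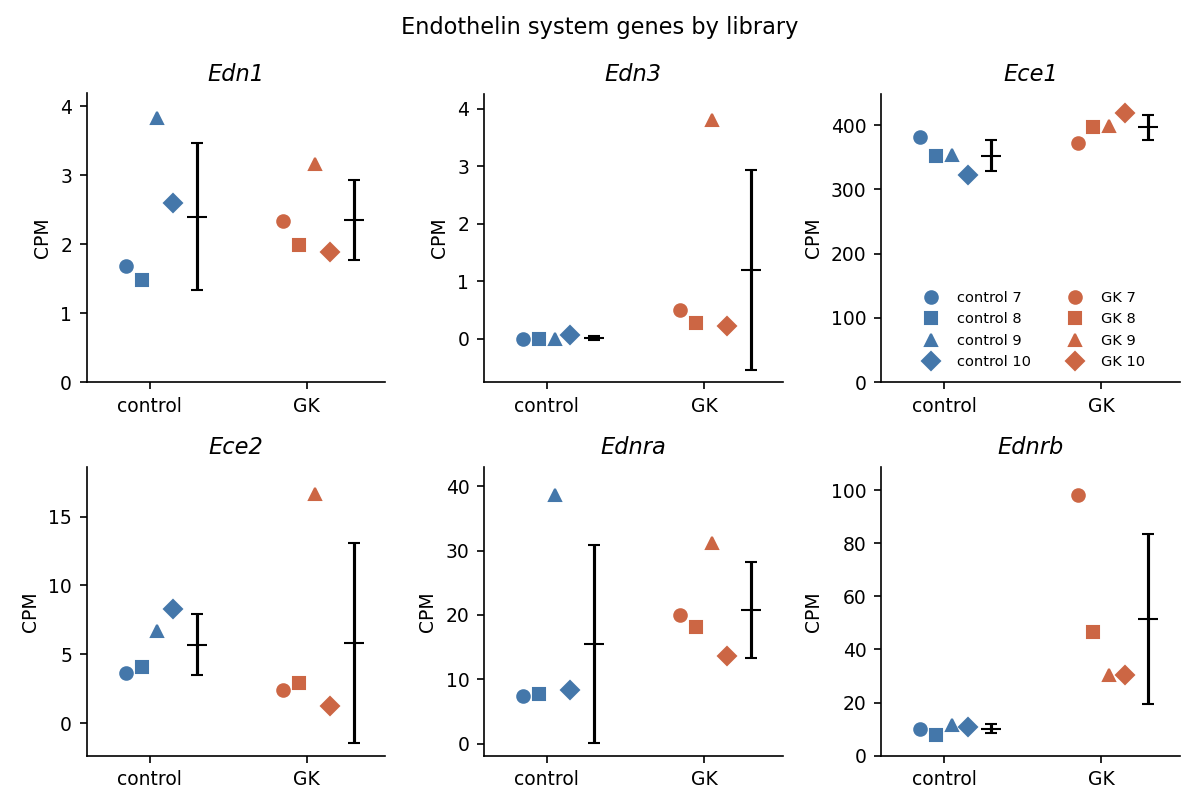
CPM of the 6 endothelin system genes (vertical axes, each panel on its own linear scale) in control and GK libraries, with 1 marker per library, shaped by its number, and the mean ± SD of 4 libraries in black. Ednrb is above the highest control in all 4 GK libraries, while Ednra in control 9 and Edn3 and Ece2 in GK 9 stand far from the other libraries of their group.

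Edn1 (chromosome 17, 22137324 to 22143324 in the coordinates of the files), the gene of the main vascular endothelin, was low and did not pass the test. Its level was 1.69, 1.48, 3.82 and 2.59 CPM in controls 7, 8, 9 and 10 and 2.34, 1.99, 3.16 and 1.89 CPM in GK 7, 8, 9 and 10. The groups overlapped throughout, and the library numbered 9 was the highest of each group. The log2 fold change was -0.04 ± 0.35 (edgeR adjusted p = 0.959), from 16 to 57 counts per library. With the mean log2 level of white and brown adipocyte markers as a covariate it was 0.97 ± 0.40 (edgeR adjusted p = 0.184). This adipocyte score was 7.40 to 8.37 in controls and 8.10 to 9.13 in GK, and was lowest in the library numbered 9 of each group. Because it differs between the groups, fits with this covariate cannot separate adipocyte content from strain.

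Edn3 (chromosome 3, 172856733 to 172880450), the gene of the endothelin that prefers the B receptor, was at the edge of detection. Controls 7, 8, 9 and 10 held 0, 0, 0 and 1 counts, and GK 7, 8, 9 and 10 held 7, 4, 59 and 3 counts. The groups did not overlap, but GK 9 alone held most of the 73 GK counts. The 3 counts taken as the floor come to 0.194 to 0.277 CPM per library, and GK 8 and GK 10 lay close to it at 0.275 and 0.227 CPM. Pooled over libraries, GK over control came to a CPM ratio of 69.2 (95% counting interval 12.03 to 2769), and of 13.2 (2.01 to 557) without both libraries numbered 9. These intervals cover counting error only.

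Edn3 did not pass the filter on low counts and so has no value in the main test. Fitted with no filter, edgeR gave a log2 fold change of 5.47 ± 1.37 with an adjusted p of 0.0656, and DESeq2 gave 5.76 ± 1.59 with no adjusted p. The authors' deposited table lists Edn3 as UP with a log2 fold change of 6.17 and a q-value of 0.0037.

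Ece1 (chromosome 5, 156215417 to 156318671), the main enzyme that turns big endothelin into the active peptide, was the most abundant member per length in every library (44.5 to 66.6 FPKM). It reached 382, 352, 354 and 322 CPM in controls 7, 8, 9 and 10, beside 372, 397, 399 and 419 CPM in GK 7, 8, 9 and 10. GK 7 lay below control 7, so the groups overlapped, although the other 3 GK libraries were above all controls. The log2 fold change was 0.17 ± 0.14 (edgeR adjusted p = 0.440). The Ece1 locus was overlapped by 3 lncRNA transcripts: MSTRG.33201.1 had a log2 fold change of 0.24 ± 0.23 (edgeR adjusted p = 0.637) and NONRATT022766.2 of 0.37 ± 0.29 (edgeR adjusted p = 0.557), and NONRATT022767.2 was too low to test. None overlapped Edn1, Edn3, Ednra or Ece2.

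Ece2 (chromosome 11, 83948230 to 83964055), a related enzyme known mainly from neural and endocrine tissue, depended on GK 9. Its level was 3.67, 4.07, 6.70 and 8.32 CPM in controls 7, 8, 9 and 10, and 2.41, 2.88, 16.6 and 1.28 CPM in GK 7, 8, 9 and 10. GK 9 was the highest of all 8 libraries, and the other 3 GK libraries were below all 4 controls. With every library the log2 fold change was 0.03 ± 0.75 (edgeR adjusted p = 0.982). Without GK 9 it was -1.36 ± 0.39 (edgeR adjusted p = 0.0429), and without both libraries numbered 9 it was -1.29 ± 0.43 (edgeR adjusted p = 0.0719). With the adipocyte covariate it was 1.65 ± 0.52 (edgeR adjusted p = 0.0976), on the other side of 0. Leaving out GK 9 called 22.1% of all genes tested and leaving out both libraries numbered 9 called 18.7%, beside 7.28% in the main test.

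Ecel1, a membrane peptidase of the same family known from neurons, went with Edn3 and Ece2 in GK 9. It had 113 counts there, 4 in control 9 and 0 in the other 6 libraries. The Schwann cell marker Sox10 was also highest in GK 9, at 33.4 CPM against 2.05 to 8.03 CPM in the other libraries. The summed level of 7 Schwann cell and nerve markers was 124 to 567 CPM in controls and 373 to 1199 CPM in GK, highest in the library numbered 9 of each group. The part of nerve tissue in the Edn3 and Ece2 values was not tested.

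**Figure D2:**
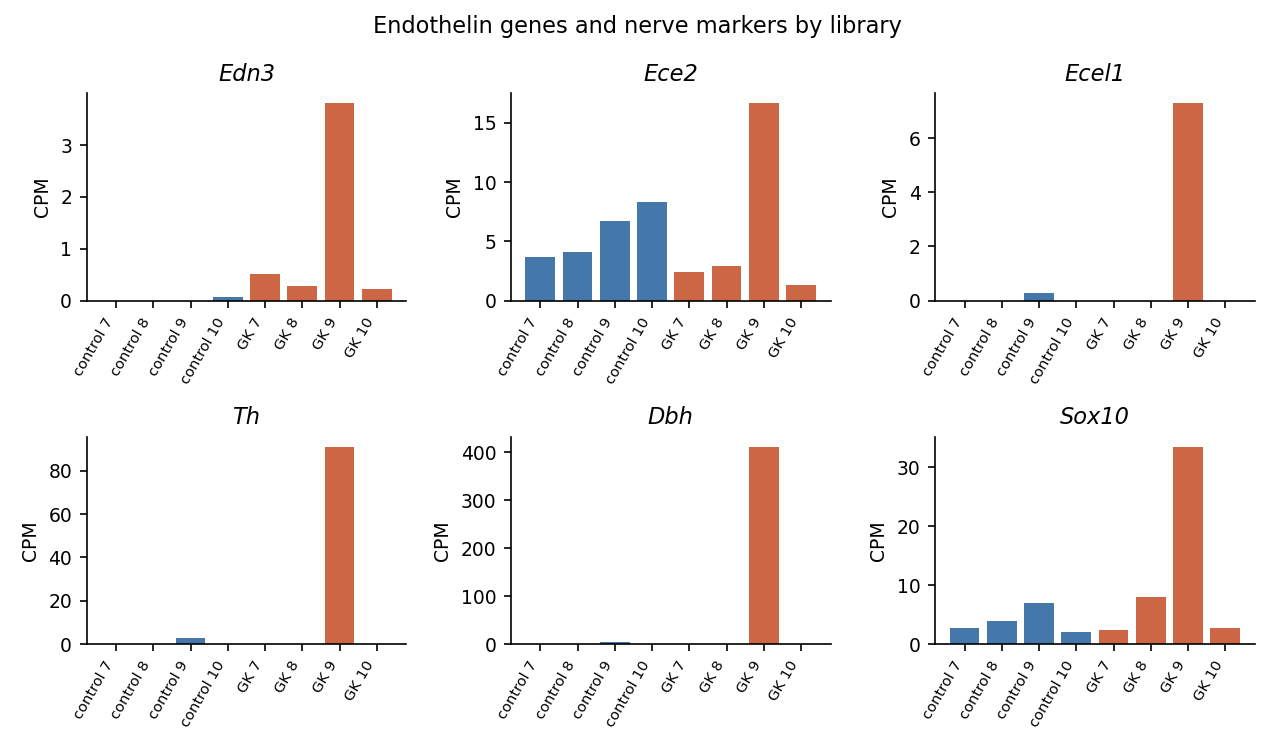
CPM (vertical axes, linear from 0) of Edn3, Ece2, Ecel1 and the nerve and Schwann cell genes Th, Dbh and Sox10 in the 8 libraries, with controls in blue and GK in orange. Each gene is highest in GK 9, where Edn3 reaches 3.81 CPM and Dbh 411 CPM.

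Ednra (chromosome 19, 33928356 to 33991703), the contractile receptor of smooth muscle, was called higher or not depending on control 9. Controls 7, 8, 9 and 10 stood at 7.34, 7.67, 38.6 and 8.32 CPM, and GK 7, 8, 9 and 10 at 19.9, 18.1, 31.2 and 13.7 CPM. Control 9 was the highest of all 8 libraries, and the other 3 controls lay below every GK library. The log2 fold change was 0.42 ± 0.58 (edgeR adjusted p = 0.667) with all libraries. Without control 9 it was 1.42 ± 0.28 (edgeR adjusted p = 0.0399), and without both libraries numbered 9 it was 1.14 ± 0.18 (edgeR adjusted p = 0.00895). With the adipocyte covariate and all libraries it was 2.02 ± 0.72 (edgeR adjusted p = 0.135). Leaving out control 9 called 3.78% of all genes tested and leaving out both libraries numbered 9 called 18.7%, beside 7.28% in the main test. The summed level of the contractile smooth muscle markers was 5373 to 14489 CPM in controls and 2529 to 6792 CPM in GK, which overlap. Of 8 tested, Itga8 and Lmod1 were called lower and none higher, beside 3.31% of all genes tested called lower.

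Ednrb (chromosome 15, 88006977 to 88036354), the receptor that relaxes vessels through the endothelium and clears endothelin, rose in GK aorta. Its level was 9.98, 7.77, 11.6 and 10.9 CPM in controls 7, 8, 9 and 10, a mean of 10.1 ± 1.67 CPM (SD, n = 4). In GK 7, 8, 9 and 10 it was 98.0, 46.7, 30.5 and 30.5 CPM, a mean of 51.4 ± 32.0 CPM (SD, n = 4). The groups did not overlap; the controls lay close together, and GK 7 was 2.10 times the next GK library. The log2 fold change was 2.35 ± 0.39 (edgeR adjusted p = 0.0163). Of the 5 members tested it was the only one whose groups did not overlap, against 15.6% of all genes tested.

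The rise of Ednrb was as large without both libraries numbered 9, at 2.60 ± 0.42 (edgeR adjusted p = 0.00903). It missed the threshold without control 10, at 2.39 ± 0.47 (edgeR adjusted p = 0.0606), and without GK 8, at 2.40 ± 0.44 (edgeR adjusted p = 0.0513). Without GK 7 the log2 fold change was 1.83 ± 0.22 (edgeR adjusted p = 0.0200), so that the fold then fell most, and the gene was still called. DESeq2 gave 2.37 ± 0.40 (adjusted p = 4.52e-07), and the authors' deposited table lists Ednrb as UP with a log2 fold change of 2.12 and a q-value of 3.14e-07.

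Some markers of endothelial cells and adipocytes were also called higher in GK. By summed level, these marker lists did not rank the GK libraries in the order of Ednrb. The summed level of the 11 endothelial markers was 757 to 1152 CPM in controls and 1253 to 1538 CPM in GK, with no overlap. Kdr alone gave 103 to 156 CPM of the control sums and 232 to 454 CPM of the GK sums. Of the 11, 4 rose (Kdr, Sox17, Flt1 and Egfl7), and the median log2 fold change was 0.33. Not called were Cdh5 (0.48), Emcn (0.33), Tek (0.27), Sox18 (0.02), Tie1 (-0.02), Erg (-0.11) and Vwf (-0.51). Without both libraries numbered 9 the same 4 were called higher and Vwf, the von Willebrand factor gene, lower. That alternative called 18.7% of all genes tested, beside 7.28% in the main test. Kdr, the main receptor for vascular endothelial growth factor, had a log2 fold change of 1.45 ± 0.24 (edgeR adjusted p = 0.0153). White adipocyte markers summed to 4568 to 7323 CPM in controls and 6537 to 13920 CPM in GK, with 2 of 6 higher, and brown adipocyte markers to 504 to 2897 CPM and 1440 to 4923 CPM, with 1 of 5 higher. Lep, the leptin gene among the white adipocyte markers, had a log2 fold change of -1.92 ± 0.67 (edgeR adjusted p = 0.111). Without both libraries numbered 9, 4 white adipocyte markers were called higher and Lep lower, and 3 brown adipocyte markers were called higher, beside the same 18.7% of all genes. With the adipocyte covariate, the Ednrb log2 fold change was 2.19 ± 0.69 (edgeR adjusted p = 0.0978). The SE was 0.39 without the covariate, whose score was 7.40 to 8.37 in controls and 8.10 to 9.13 in GK. The part of the endothelial markers in the result was not tested.

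Other cell types known to carry the B receptor were also looked at. Of the 3 melanocyte markers found none passed the filter, and their sum was 0.440 to 1.20 CPM in controls and 1.21 to 3.78 CPM in GK. Dct, an enzyme of melanin synthesis and 1 of these 3, was at 0 to 0.370 CPM in controls and 0.529 to 3.16 CPM in GK with no overlap. DESeq2, which called 11.6% of all genes, called Dct higher. Pmel was at 0.440 to 0.832 CPM in controls and 0.584 to 1.87 CPM in GK, which overlap. Mlana was at 0 to 0.268 CPM in controls and at 0 in GK. The part of melanocytes in the Ednrb result was not tested. Of the 5 Schwann cell and nerve markers tested 1 was called higher, the myelin gene Mbp. The sum was highest in GK 9, where Dbh alone gave 411 CPM of it and Ednrb was at 30.5 CPM, as in GK 10. The part of Schwann cells and nerve in the Ednrb result was not tested. Pericyte markers summed to 705 to 1184 CPM in controls and 526 to 803 CPM in GK with none of 5 called. Of 7 fibroblast markers 3 fell (Col1a1, Dpt and Cd34). No macrophage, mast cell, lymphatic endothelial or mesothelial marker was called with all libraries. With the libraries numbered 9 left out, 5 fibroblast markers and the pericyte marker Abcc9 were called lower. S100b beside Mbp and the macrophage marker Cd68 were then called higher, while the median log2 fold change of the 5 macrophage markers was -0.957. Of all genes tested, 18.7% were called in that setting and 7.28% in the main test. With all libraries Cd68 had a log2 fold change of 0.77. The macrophage markers Adgre1, Cd163, Mrc1 and Csf1r then had -1.11, -0.93, -0.86 and -1.13.

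The lncRNA transcript MSTRG.14963.5 rose together with Ednrb. It spans chromosome 15 from 88021923 to 88029717, 7795 bases, and lies wholly inside the Ednrb locus, 14946 bases from its lower end and 6637 from its upper end. Its level was 39.0, 25.7, 38.3 and 27.0 CPM of the lncRNA table in controls 7, 8, 9 and 10, and 296.8, 126, 102 and 177 CPM in GK 7, 8, 9 and 10. All GK libraries were above all controls. The log2 fold change was 2.43 ± 0.36 (edgeR adjusted p = 0.0141, over the lncRNA table, of whose 11683 transcripts tested 1.63% were called higher), and without control 10 it was 2.36 ± 0.42 (edgeR adjusted p = 0.0539).

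GK 7 was the highest library for the transcript and for Ednrb alike, while GK 10, the second highest for the transcript, was among the lowest GK libraries for Ednrb. The transcript's counts in the lncRNA table, set against the Ednrb counts in the gene table, came to 53.7%, 36.9%, 41.0% and 35.0% in controls 7, 8, 9 and 10. In GK 7, 8, 9 and 10 they came to 36.6%, 31.3%, 41.7% and 66.1%. These ratios of separate tables, which are no shares, overlapped between the groups. The file gives no strand for the transcript and exons were not compared here, so reads of the transcript and of Ednrb cannot be told apart, and the transcript is no independent measure of the locus. The authors' deposited table pairs the transcript with Ednrb as a cis target.

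**Figure D3:**
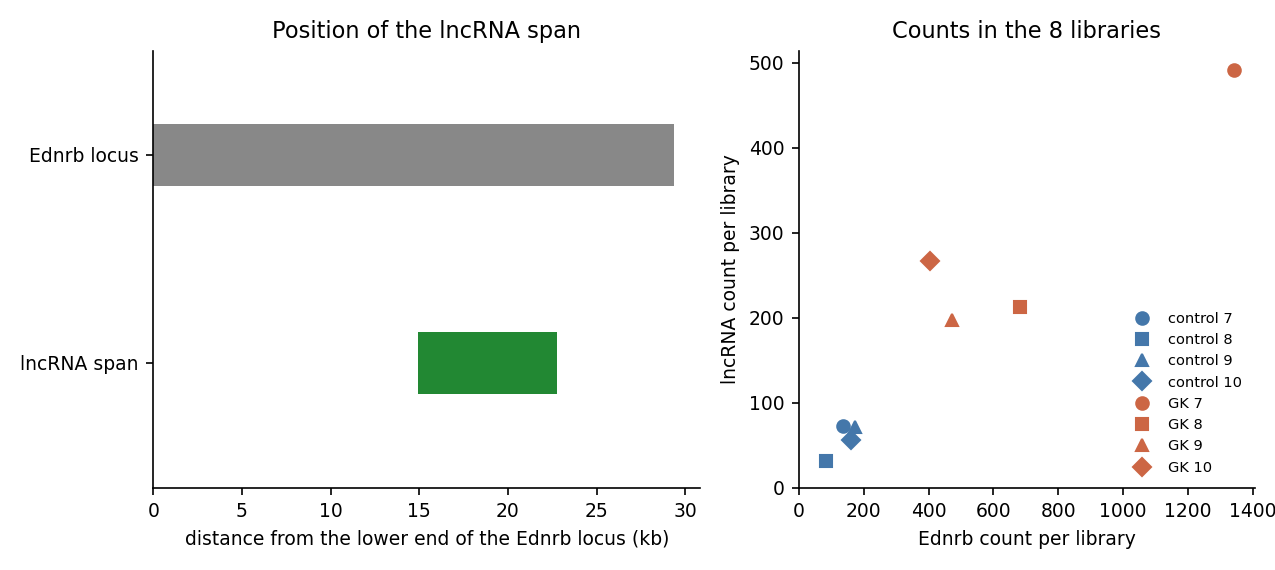
Left, the span of the lncRNA transcript inside the Ednrb locus, in kilobases from the lower end of the locus. Right, raw counts of the transcript (vertical axis) against raw counts of Ednrb (horizontal axis) in the 8 libraries; the 4 controls lie at 84 to 173 Ednrb counts and the GK libraries at 404 to 1343.

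Of the 3 nearest genes on each side of Ednrb, Scel, Rnf219 and Rbm26 could be tested and none was called. Their log2 fold changes were -0.72 ± 1.02, -0.29 ± 0.15 and -0.04 ± 0.16 (edgeR adjusted p = 0.674, 0.255 and 0.881). The gaps to Ednrb were 186197 bases for Scel and 595439 for Rnf219, with the nearest gene, Slain1, 100502 bases away and too low to test.

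Compared within each library, the receptors had a log2 ratio of Ednrb to Ednra counts of 0.44, 0.02, -1.73 and 0.39 in controls 7, 8, 9 and 10. In GK 7, 8, 9 and 10 it was 2.30, 1.37, -0.04 and 1.16. Both libraries numbered 9 were the lowest of their group, and GK 9 fell among the controls, so the groups overlapped. The mean was -0.22 ± 1.03 in controls and 1.20 ± 0.96 in GK (SD, n = 4), a difference of 1.42 with a two-sided exact permutation p of 0.114, where the smallest p the design allows is 0.0286. Leaving out control 9 took the difference to 0.91, over 1.5 times smaller, with an exact permutation p of 0.229, and leaving out GK 9 took it to 1.83, with an exact permutation p of 0.0571. Without both libraries numbered 9 the groups did not overlap, and the difference was 1.32 with an exact permutation p of 0.1, the smallest that 3 against 3 allows.

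**Figure D4:**
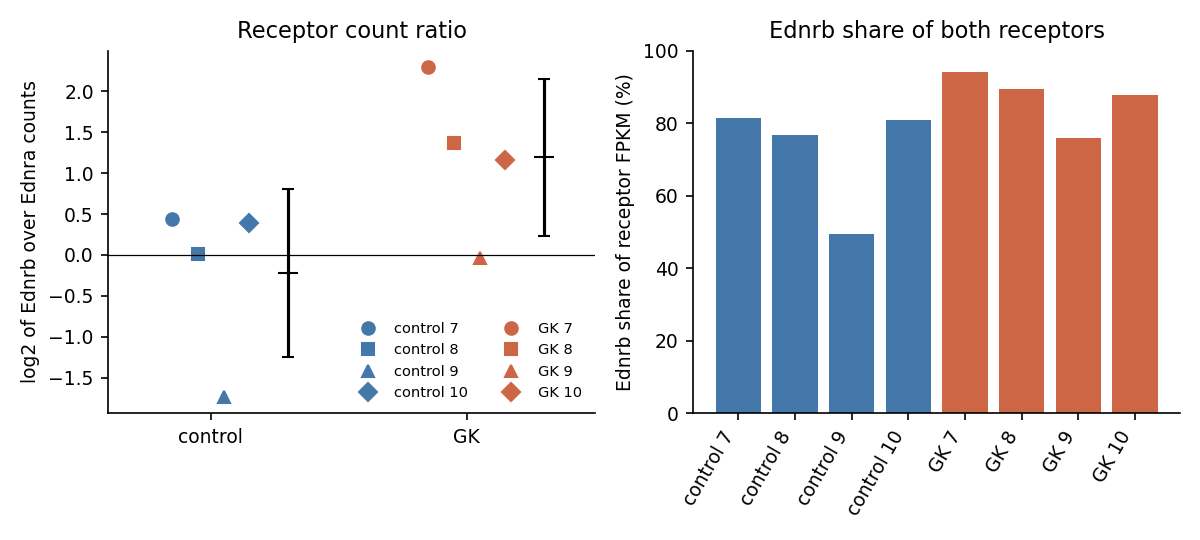
Left, log2 of the ratio of Ednrb to Ednra counts per library, with mean ± SD of 4 libraries in black. Right, the share of Ednrb in the summed FPKM of both receptors per library in percent, on an axis from 0; it is lowest in control 9 at 49.3% and highest in GK 7 at 94.1%.

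Levels of different genes were compared on the deposited FPKM scale, which is per length. Ece1 led in both groups, with a median of 52.4 FPKM in controls and 52.0 FPKM in GK. Ednrb was next, at 5.52 FPKM in controls and 20.4 FPKM in GK, and its range lay below that of Ece1 in both groups. It was above every other member in all libraries but control 9, where Ednra reached 7.39 FPKM and Ednrb 7.20 FPKM. In controls Edn1 (median 1.63 FPKM), Ece2 (1.60 FPKM) and Ednra (1.28 FPKM) followed with overlapping ranges, and Edn3 was last with a median listed at 0. In GK the order after Ednrb was Ednra (2.66 FPKM), Edn1 (1.40 FPKM), Ece2 (0.643 FPKM) and Edn3 (0.183 FPKM), and each range overlapped the next, although Ednra was above Edn1 in all 4 GK libraries. Of the summed FPKM of both receptors, Ednrb made up 49.3% in control 9 and 76.6% to 81.5% in the other controls. It made up 76.0% in GK 9 and 87.9% to 94.1% in the other GK libraries.

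**Figure D5:**
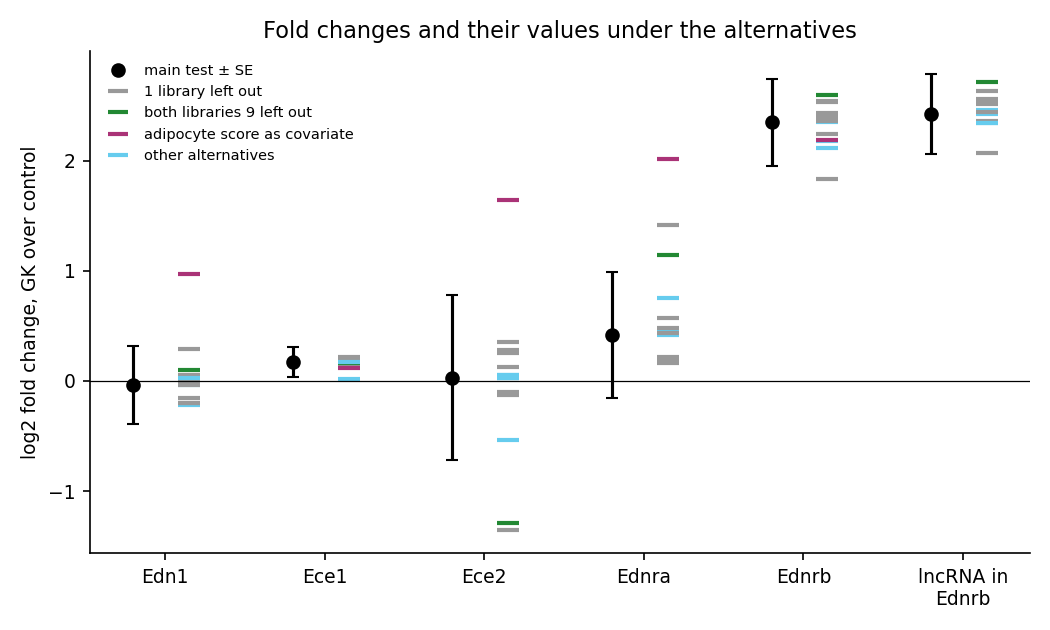
Log2 fold change of GK over control (vertical axis) for the 5 members tested and the lncRNA transcript in the Ednrb locus, with the main test ± SE as black points and each alternative as a dash (no covariate fit was made for the transcript). Ednrb runs from 1.83 to 2.60 over all alternatives, whereas Ednra and Ece2 spread widely.

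The pathway around the receptors was read from 6 lists with 72 genes tested, of which 1 rose and 5 fell, 8.33% in all beside 7.28% of all genes tested. Left out singly, control 10, GK 7, GK 8 and GK 10 each left all 6 called genes short of significance, at edgeR adjusted p of 0.0602 to 0.137, and their directions stayed the same. Without control 7 this held for Rgs2 and Nos3 (edgeR adjusted p = 0.0840 and 0.0503), without control 8 for Prkcd, Rgs2 and Ptgis (0.0645, 0.0799 and 0.0712) and without control 9 for Prkcd, Pcsk5 and Ptgis (0.0981, 0.0618 and 0.0670). With the adipocyte covariate 4 of the 6 were no longer called: Prkcd at -0.34 ± 0.21, Pcsk5 at -0.50 ± 0.32, Mmp2 at -1.02 ± 0.29 and Ptgis at -1.50 ± 0.53 (edgeR adjusted p = 0.354, 0.386, 0.0752 and 0.133). Nos3 at 1.11 ± 0.20 and Rgs2 at -2.70 ± 0.46 were still called (edgeR adjusted p = 0.0262 and 0.0231).

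Of 9 tested genes for precursor processing and peptide removal none rose and 2 fell, beside 3.31% of all genes tested that fell. Pcsk5, a convertase related to furin, was at a median of 89.4 CPM in controls and 37.2 CPM in GK, a log2 fold change of -1.29 ± 0.27 (edgeR adjusted p = 0.0300). Mmp2, a gelatinase that can also cut big endothelin, was at 474 CPM and 105 CPM, a change of -1.82 ± 0.34 (edgeR adjusted p = 0.0223). Neither gene's groups overlapped, as held for 15.6% of all genes tested.

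Behind the B receptor, 8 genes of the relaxant arm were tested, of which 1 rose and 1 fell, with a median log2 fold change of -0.57. Over all genes tested, 3.96% rose, 3.31% fell and 15.6% had groups that did not overlap. Nos3, the endothelial nitric oxide synthase, rose from 36.8, 31.5, 48.7 and 45.5 CPM in controls 7, 8, 9 and 10 to 73.5, 69.1, 70.5 and 64.9 CPM in GK 7, 8, 9 and 10. All GK libraries were above all controls, with a log2 fold change of 0.77 ± 0.15 (edgeR adjusted p = 0.0252). Ptgis, the prostacyclin synthase, stood at 48.2, 138, 84.5 and 116 CPM in controls and at 17.4, 25.7, 41.4 and 38.7 CPM in GK, numbered as before. It fell with no overlap of the groups, and its log2 fold change was -1.65 ± 0.37 (edgeR adjusted p = 0.0371). The part of the endothelial markers, of which 4 of 11 rose, in the Nos3 result was not tested.

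Without both libraries numbered 9 the relaxant arm had 1 gene called higher, again Nos3, and 4 called lower: Ptgis, Ptgs1, the cyclooxygenase upstream of it, Gucy1a3, a subunit of the nitric oxide receptor, and Pde5a, which degrades cyclic GMP. The list for processing and removal then held 1 gene called higher, Mme, the neprilysin gene whose product degrades endothelin 1, and the same 2 genes called lower. With all libraries Mme had a log2 fold change of 1.39 ± 0.37 (edgeR adjusted p = 0.0582), at 86.4 to 160 CPM in controls and 116 to 384 CPM in GK, where GK 9 was the lowest. That alternative calls 2534 genes in all, 18.7% of those tested.

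Receptor desensitisation was read from 10 genes, of which Rgs2 fell and none rose, beside 7.28% of all genes tested that were called. Rgs2, which speeds the switching off of Gq, was at 292, 224, 76.1 and 151 CPM in controls 7, 8, 9 and 10 and between 37.1 and 73.6 CPM in the GK libraries. The ranges came close, between control 9 and GK 10, without overlap, and the log2 fold change was -1.72 ± 0.41 (edgeR adjusted p = 0.0438). Prkcd, a protein kinase C known in contractile signalling, had a log2 fold change of -1.11 ± 0.27, a fall past the threshold (edgeR adjusted p = 0.0458), with GK 9 at 32.1 CPM just below the lowest control at 32.4 CPM. The part of the contractile markers, of which 2 of 8 fell and whose sums overlapped, in these values was not tested. The desensitisation list without both libraries numbered 9 had Grk5, a receptor kinase, called higher and Arrb1, an arrestin, called lower beside Rgs2. In that setting 18.7% of all genes tested were called.

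None of 12 genes for G protein and phospholipase C coupling was called, with a median log2 fold change of 0.21. When both libraries numbered 9 were left out, Gnai1, an inhibitory subunit, was called higher and Plcb4, a phospholipase C, lower. DESeq2 with all libraries called Plcb4 lower. Of all genes tested, these alternatives called 18.7% and 11.6%. Gnas, the Gs alpha subunit and the most abundant of them, was at 326 to 1568 CPM in controls and 652 to 2380 CPM in GK, a log2 fold change of 0.70 ± 0.55 (edgeR adjusted p = 0.432). Several entries carry the name Gnas, and only the one with the most counts was read here. Gnai2, another inhibitory subunit, had -0.33 ± 0.20 (edgeR adjusted p = 0.325). None of 12 transcription factor genes known at Edn1 or Ednrb was called in the main test either, with a median of 0.22. Jun, which binds AP-1 type motifs such as the one marked above in the Edn1 window, had a log2 fold change of -0.36 ± 0.45 (edgeR adjusted p = 0.637), and Pparg, the adipocyte regulator, of 0.24 ± 0.41 (edgeR adjusted p = 0.726). Sox10 and Mitf, factors of the neural crest and melanocyte lineage known at Ednrb, had 1.57 ± 0.85 (edgeR adjusted p = 0.268) and -0.75 ± 0.21 (edgeR adjusted p = 0.0617). DESeq2 called Mitf lower, as edgeR did without GK 9. These settings called 11.6% and 22.1% of all genes tested, beside 7.28% in the main test. Of the 12 factors, Gata2 and Klf4 were called higher with the adipocyte covariate, and none lower. That fit called 738 genes in all and cannot separate adipocyte content from strain. Sox10, Mitf, Mme and the further genes named for alternatives are beyond the rule and were chosen after their values were seen.

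The genes whose pattern was most like that of a member were taken by the smallest root-mean-square difference of centred log2 CPM over the 8 libraries, among 8476 genes with a mean of at least 10 CPM (8477 for Edn1). For Ednrb these were Slc26a10 (0.264), Pfkp (0.354), Adcy3 (0.378), Ric3 (0.440) and Pde7b (0.442), where the spread of Ednrb itself was 1.20. Pfkp encodes a phosphofructokinase of glycolysis, Adcy3 an adenylyl cyclase and Pde7b a phosphodiesterase for cyclic AMP. For Ednra they were Slc6a17 (0.265), S100b (0.374), Ube2o (0.374), Nkd2 (0.398) and Fam105a (0.399), beside a spread of 0.854 for Ednra. S100b, a Schwann cell marker here, was at 446 CPM in control 9 and 67.6 to 127 CPM in the other controls, as Ednra was highest in control 9. For Edn1 they were Ephb4 (0.149), Mtss1l (0.165), Cfd (0.165), Zdhhc9 (0.174) and St3gal1 (0.179), beside a spread of 0.408. The 8 points of each pattern share their libraries and depth, and no test was made of these likenesses.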

How the data were processed

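Total RNA of the thoracic aorta was sequenced in 4 control and 4 GK samples, grouped by title, strain and group. Raw counts for every gene and lncRNA transcript, and FPKM per library, were deposited by the authors, per the file headers. The log2 fold changes in the authors' deposited table are of their group means of FPKM, and the authors' p-values and q-values were made with edgeR, going by the file names. Bowtie 0.12.2 is named in the submitters' processing notes, beside mm8 and mm9, mouse builds whose role is not given. The labels and headers read here name no rat build; gene and lncRNA coordinates are as in the files, and the upstream windows are on GRCr8.

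From the counts, CPM and tests were computed in R 4.3.3 with edgeR 4.0.16 (filterByExpr, TMM, glmQLFit, glmQLFTest, group only), for genes and lncRNA separately, each table with its own totals. Each SE was obtained by dividing the log2 fold change by the root of F. TMM factors of genes were 0.826 to 1.24. The fits were tested on simulated data. DESeq2 1.42.0, other scalings and filters, each library left out, both libraries numbered 9 left out, a replicate block and an adipocyte covariate were the alternatives. Ratios used counts plus 0.5 in an exact permutation test (scipy 1.17.1).

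The members, lists, tests and alternatives were chosen with earlier results of these data known. Named are all members, up to 5 called genes per pathway list by lowest adjusted p (with none, the 2 of highest mean CPM), and the 5 genes most like Ednrb, Ednra and Edn1. Of 148 distinct genes in the lists 141 were found, 4 of them through RefSeq synonyms. A nerve marker and the counts of 1 pathway list are not reported here. Enrichment and circular RNA tables were not used here.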

Additional observations from a re-analysis of the deposited data

Results flagged for a closer look

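In 42 groups of 4 libraries, 5 held a library whose gap to the nearest other, over the range, exceeded Dixon's 95% critical value. For normally distributed values chance flags about 1 in 20 groups, a rate that need not hold for CPM near 0. GK 9 held 3 of them. Edn3 was at 3.81 CPM in GK 9, with the next GK library at 0.511 CPM. Ece2 was at 16.6 CPM in GK 9, with the next at 2.88 CPM. Prkcd was at 32.1 CPM in GK 9, with the next at 18.3 CPM. Ednra was at 38.6 CPM in control 9, with the next control at 8.32 CPM. Edn3 in control 10 was at 0.0682 CPM from 1 count, with the other controls at 0, where any single count is flagged.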

How the results depend on the processing

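Depth limits Edn3 and Edn1 most, and the library numbers 7 to 10 are not stated to mark a shared animal, litter or day. Deviations of same-numbered libraries correlated at 0.417, 0.0679, 0.545 and 0.0248, so they were not taken as pairs; only the libraries numbered 7 and 9 correlated best with their own number in both groups. With the replicate block 2372 genes were called in place of 995, and the log2 fold changes were 2.18 for Ednrb (edgeR adjusted p = 0.0137), 2.34 for its lncRNA (edgeR adjusted p = 0.0349), 0.75 for Ednra (edgeR adjusted p = 0.134), 0.0246 for Edn1 and -0.54 for Ece2. Gnas was called with it, at 0.77 (edgeR adjusted p = 0.0293). The sign-flip exact permutation p of the receptor ratio within numbers was 0.125.

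Counts of called genes were 473 with library totals only, which moved the median of all genes to -0.16, 654 with no filter, 2229 with DESeq2, 2534 without both libraries numbered 9, and 135 to 3046 with 1 library left out. For lncRNA, where the main count was 320, they were 158 with no filter, 817 with DESeq2, 501 without both libraries numbered 9 and 108 to 581 with 1 left out. The causes were not tested.

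With 1 library left out, log2 fold changes ran from 1.83 to 2.55 for Ednrb, 2.07 to 2.63 for its lncRNA, 0.16 to 1.42 for Ednra, -0.20 to 0.29 for Edn1 and -1.36 to 0.36 for Ece2. Without both libraries numbered 9, Ednra was at 1.14, Edn1 at 0.10 and Ece2 at -1.29. With the adipocyte covariate, Ednrb was at 2.19 (edgeR adjusted p = 0.0978), Ednra at 2.02, Ece2 at 1.65, Edn1 at 0.97, Gnas at -1.002, Gnai2 at 0.06, Pparg at -0.98 and Jun at 0.32. The adipocyte score differed between the groups and was lowest in the library numbered 9 of each. The cause of these changes was not tested. Ednrb kept its direction in all 16 alternatives and its call in 13, and Ece1 kept its direction and stayed uncalled in all 16. The Edn3 ratio was 16.8 to 87.8 with 1 library left out, where the lowest, without control 10, sets the controls at the floor of 3 counts over the group and is thus a lower bound, and 18.2 without GK 9. Each pathway gene called lost its call in 6 to 9 of 16 alternatives.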
